A study of Rattus norvegicus with 9 samples.

Results

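The transcripts described here are those of 9 genes that mark neurons and their axons: the neurofilament subunits Nefl (light chain), Nefm (medium chain) and Nefh (heavy chain), the related filament proteins Ina (alpha-internexin) and Prph (peripherin), the neuronal tubulin Tubb3, the growth-associated genes Stmn2 and Gap43, and the neuronal deubiquitinase Uchl1. They were taken by gene symbol from a table of 32883 genes, and all 9 were among the 15517 genes abundant enough to be tested. Levels were measured by RNA-seq in the vestibular sensory epithelium of male Long-Evans rats. Rats of the IDPN-3wk and IDPN-7wk groups drank water with 20 mM 3,3'-iminodipropionitrile (IDPN), an ototoxic nitrile, for 3 or 7 weeks, and a single group of controls, shared by both comparisons, drank plain water. The paper states that this control group held animals killed at each of the time points. The labels do not say which control belongs to which time, so neither comparison is matched for time. Each library came from 1 rat, with the cristae and utricles of both ears pooled, and each of the 3 groups had 3 libraries. No genetic alteration is given for any group, and the age of these rats is not given in the sources used here.

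Neurofilaments are the intermediate filaments that fill large axons and set their calibre. The light chain starts the assembly, the medium and heavy chains join it and extend long side arms, and alpha-internexin and peripherin can enter the same filaments. The proteins are made in the cell body and carried slowly along the axon, and IDPN is a classic toxicant of that transport, known to pile up neurofilaments in proximal axons. In the vestibular organs the afferents reach the hair cells (HCs) as calyces and boutons, whereas their cell bodies lie outside the epithelium, in the vestibular ganglion. Several of the 9 genes are not strictly neuronal, and Gap43, for example, is also made by Schwann cells.

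Library totals ran from 31100118 to 46018385 counts, and 3 counts, taken as the limit that a count of 0 allows, corresponded to 0.0611 to 0.101 normalized CPM (counts scaled to a common library size). These limits cover counting error only. At equal depth, 3 libraries (control replicate 3 and IDPN-3wk replicates 1 and 2) held 15387 to 15498 detected genes and the other 6 held 16834 to 17312. Results that rest on these 3 libraries are also given without them. That leaves 1 IDPN-3wk rat and 2 controls, so at 3 weeks such a fit has no spread within the exposed group. The sample titles carry codes of a number and letters whose meaning is not given. All 3 controls share a number that no exposed rat has, so that number and the control group cannot be told apart. Among 18 neuron body markers, 12 were abundant enough to be tested. Pou4f1 and Neurog1, transcription factors of sensory neurons, were at 0 in all 9 libraries, and the other 4 untested markers, Neurod1, Elavl2, Slc17a6 and Slc17a7, did not exceed 1.35 CPM in any library. The data are bulk measurements, in which fewer cells of a type and less RNA per cell cannot be told apart.

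Of the 9 genes, Uchl1 alone passed the test in the main analysis, and only at 7 weeks. A gene was called a differentially expressed gene (DEG) if its adjusted p from edgeR's quasi-likelihood test, corrected by the Benjamini-Hochberg method over all genes tested, was under 0.05 and its fold change was above 1.5. By this rule 0 of 9 genes were DEGs in IDPN-3wk against control, where 1.65% of all genes tested were DEGs. In IDPN-7wk against control 1 of 9 was a DEG, with 5.13% of all genes. Between IDPN-7wk and IDPN-3wk it was 0 of 9, with 0.483% of all genes. DESeq2, run as an alternative, called 3, 1 and 0 of the 9 genes in these comparisons, with 5.18%, 8.73% and 3.84% of all genes. An unadjusted p under 0.05 from edgeR was found for 5, 4 and 1 of the 9, with 15.8%, 19.3% and 13.8% of all genes. The groups did not overlap for 5, 5 and 1 of the 9, with 19.6%, 34.3% and 21% of all genes. The median log2 fold change of the 9 genes was -0.20 against control at both times.

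**Figure D1:**
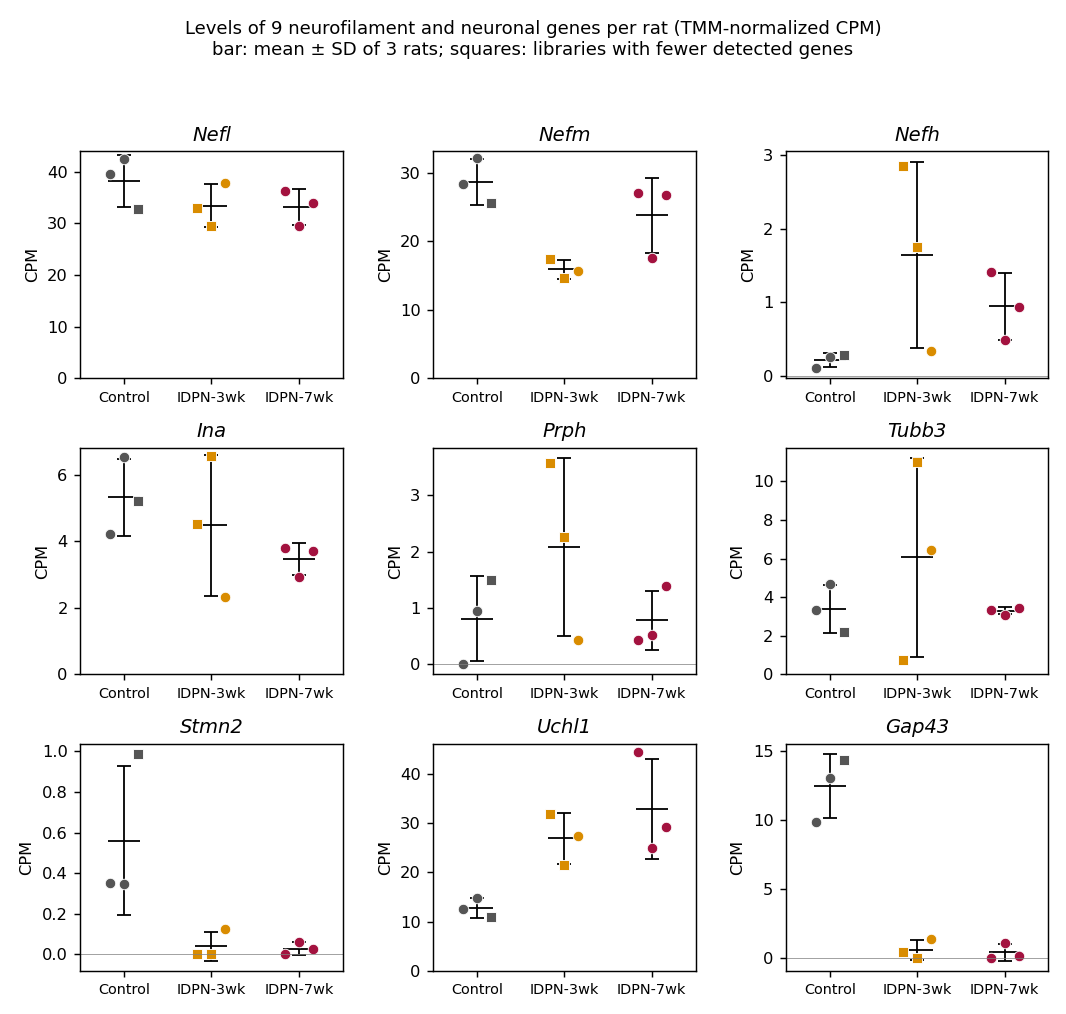
Level of each of the 9 genes in each rat, in CPM on a linear axis. Each point is 1 library, bars are the mean ± SD of 3 rats, and squares are the 3 libraries with fewer detected genes. Uchl1 is higher in all 6 exposed rats than in the controls, Gap43 is at most 1.38 CPM in exposed rats against at least 9.90 CPM in controls, and the groups overlap for Nefl.

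Uchl1 encodes ubiquitin C-terminal hydrolase L1 (PGP9.5), an abundant neuronal enzyme of ubiquitin turnover. Since it is the gene that passed the test, its promoter is shown, from 250 bases before to 50 bases after the transcript start, as RefSeq places it in GRCr8 (chr14:41849368-41849667, minus strand). RefSeq promoters were matched for 4 of the 9 genes. The files themselves use the older build Rnor6.0. Capitals mark the matches of the TATA box TATAAA and of the GC box GGGCGG, searched on both strands:

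Uchl1: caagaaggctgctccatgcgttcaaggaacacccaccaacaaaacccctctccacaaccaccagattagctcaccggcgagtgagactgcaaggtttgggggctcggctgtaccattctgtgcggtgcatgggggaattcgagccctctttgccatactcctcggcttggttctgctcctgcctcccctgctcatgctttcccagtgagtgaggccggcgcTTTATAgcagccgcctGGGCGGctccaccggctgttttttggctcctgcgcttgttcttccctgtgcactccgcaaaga

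The TATA box match lies on the opposite strand and ends 23 bases before the start, and the GC box match ends 7 bases before it. The 2 matches do not overlap. Over all 33469 promoters of this length, 14.2% held TATAAA and 33.1% held GGGCGG on either strand, so neither match is rare.

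Uchl1 measured 12.6, 14.9 and 10.9 CPM in the 3 controls, 31.8, 21.5 and 27.5 CPM in IDPN-3wk, and 44.4, 25.0 and 29.3 CPM in IDPN-7wk. Every exposed rat was above every control, and the 2 exposed groups overlapped. In IDPN-7wk it rose 2.57-fold, with a log2 fold change of 1.36 ± 0.25 (SE, n = 3 rats per group) and an adjusted p of 0.0104 by edgeR (8.74e-06 by DESeq2). The call held in all 13 other settings of the analysis that were laid down with the main test, with log2 fold changes of 1.08 to 1.52 and adjusted p from 8.74e-06 to 0.0473, each library left out in turn included. In IDPN-3wk the fold was 2.10, with a log2 fold change of 1.07 ± 0.249 (SE) and an adjusted p of 0.0641 by edgeR, above the threshold. DESeq2 called it at 3 weeks (adjusted p = 0.00164), also with any 1 library left out (adjusted p from 0.000753 to 0.0223 over 6 fits). Without the 3 libraries with fewer genes, which leaves 1 IDPN-3wk rat, the log2 fold change was 1 by both tools. Whether the call holds without them could not be judged from that 1 rat. Over the same settings the 3-week adjusted p ran from 0.00164 to 0.196. Between the exposed groups the log2 difference was 0.29, with a 95% interval of -0.26 to 0.83.

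The neurofilament light chain showed no detectable difference. Nefl measured 39.5, 42.4 and 32.7 CPM in controls, 33.0, 29.4 and 37.7 CPM in IDPN-3wk and 36.2, 29.4 and 33.9 CPM in IDPN-7wk, and the 3 groups overlapped. Its log2 fold change was -0.20 at both times, with adjusted p of 0.605 and 0.561 by edgeR. Both 95% intervals, -0.55 to 0.16 at 3 weeks and -0.56 to 0.15 at 7 weeks, lie inside a 1.5-fold change in either direction.

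Nefm, which lies next to Nefl in the rat genome with no protein-coding gene between them in GRCr8, had its lowest levels at 3 weeks. It measured 28.3, 32.2 and 25.5 CPM in controls, 17.4, 14.6 and 15.6 CPM in IDPN-3wk and 27.0, 17.5 and 26.8 CPM in IDPN-7wk. All IDPN-3wk rats were below all controls and below all IDPN-7wk rats, whereas IDPN-7wk and control rats overlapped. The IDPN-3wk mean was 1.80-fold below the control mean (log2 fold change -0.85 ± 0.203 SE), with an adjusted p of 0.0708 by edgeR and 0.00267 by DESeq2. The edgeR value is over the threshold and the DESeq2 value is under it, and the adjusted p ran from 0.00267 to 0.221 over the other settings. The DESeq2 call was lost when control replicate 2 was left out (adjusted p = 0.0513) and held when any other library of the comparison was (5 of 6 fits). Without the 3 libraries with fewer genes, which leaves 1 IDPN-3wk rat, the log2 fold change was -0.95 by both tools. At 7 weeks the log2 fold change against control was -0.27 (adjusted p = 0.539 by edgeR). Between IDPN-7wk and IDPN-3wk it was 0.58 ± 0.202 (SE), with an unadjusted p of 0.0163 and an adjusted p of 0.246 by edgeR. DESeq2 called this difference only without IDPN-7wk replicate 2 (adjusted p = 0.00445), the IDPN-7wk rat with the lowest Nefm.

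Nefh had few counts, with 22 summed over the 3 controls. It measured 0.108, 0.251 and 0.281 CPM in controls, 2.86, 1.75 and 0.338 CPM in IDPN-3wk and 1.41, 0.493 and 0.937 CPM in IDPN-7wk. All 6 exposed rats were above all controls, but IDPN-3wk replicate 3 was above the highest control by less than the spread of the controls. The log2 fold change was 2.94 ± 0.984 (SE) at 3 weeks, with an adjusted p of 0.177 by edgeR and 0.0216 by DESeq2. At 7 weeks it was 2.13 ± 0.96 (SE), with an adjusted p of 0.256 by edgeR and 0.117 by DESeq2. The high values at 3 weeks came from the 2 IDPN-3wk libraries with fewer detected genes. Without the 3 libraries of that kind, which leaves 1 IDPN-3wk rat, the 3-week log2 fold change was 0.92 by edgeR. With that property as a covariate it was 1.99 (adjusted p = 0.369 by edgeR). The DESeq2 call at 3 weeks was lost without control replicate 1 or 2 or without IDPN-3wk replicate 1 or 2, so it held in 2 of 6 fits. At 7 weeks, where no IDPN library is of that kind, the log2 fold change with the 3 libraries left out was 2.39 by edgeR (adjusted p = 0.104) and 2.42 by DESeq2 (adjusted p = 0.0482, chosen after seeing the data).

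Ratios of subunits within a library do not depend on its scaling. The log2 ratio of Nefm to Nefl counts was -0.48, -0.40 and -0.36 in the controls, -0.92, -1.01 and -1.27 in IDPN-3wk, and -0.42, -0.75 and -0.34 in IDPN-7wk. All IDPN-3wk rats were below the other 6 rats. The mean difference from control was -0.65 at 3 weeks and -0.09 at 7 weeks, with exact two-sided permutation p of 0.1 and 0.7, and IDPN-7wk was 0.56 above IDPN-3wk (exact permutation p = 0.1). With 3 rats against 3, 0.1 is the smallest p this test can give. The log2 ratio of Nefh to Nefl averaged -7.49 ± 0.792 in controls, -4.77 ± 1.72 in IDPN-3wk and -5.23 ± 0.6 in IDPN-7wk (SD, n = 3), and the controls overlapped with neither exposed group (exact permutation p = 0.1 for both). IDPN-3wk replicate 3, at -6.74, was next to the highest control, at -6.79.

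**Figure D2:**
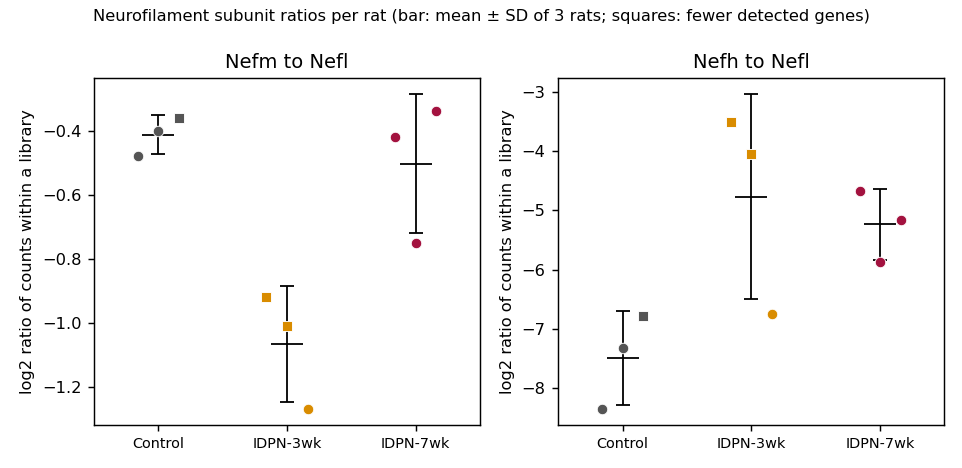
Log2 ratio of Nefm to Nefl counts (left) and of Nefh to Nefl counts (right) within each library, on separate log2 axes. Points are rats, bars are the mean ± SD of 3 rats, and squares are libraries with fewer detected genes. The 3 IDPN-3wk rats have the lowest Nefm to Nefl ratios, from -1.27 to -0.92, and the Nefh to Nefl ratio of IDPN-3wk replicate 3 is close to that of a control.

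The 2 other filament genes were more variable. Ina measured 4.21, 6.52 and 5.21 CPM in controls, 4.52, 6.57 and 2.34 CPM in IDPN-3wk and 3.81, 2.92 and 3.70 CPM in IDPN-7wk. The IDPN-7wk rats were all below the controls, with a log2 fold change of -0.61 ± 0.419 (SE) and an adjusted p of 0.498 by edgeR. At 3 weeks the Ina log2 fold change was -0.25 (adjusted p = 0.832). Prph measured 0, 0.94 and 1.49 CPM in controls, 3.57, 2.26 and 0.43 CPM in IDPN-3wk, and 0.428, 0.514 and 1.39 CPM in IDPN-7wk. The groups overlapped, and its log2 fold changes of 1.36 at 3 weeks and -0.06 at 7 weeks had SEs of 1.31 and 1.3, so a difference in either direction was not detectable with this number of rats.

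Tubb3, the beta-tubulin used as a neuronal marker, measured 3.34, 4.67 and 2.19 CPM in controls and 3.34, 3.10 and 3.44 CPM in IDPN-7wk. In IDPN-3wk it measured 0.736, 11.0 and 6.46 CPM, so this group held both the lowest and the highest value of all 9 rats. Its log2 fold change was 0.83 ± 0.728 (SE) at 3 weeks and -0.04 ± 0.725 at 7 weeks, with adjusted p of 0.637 and 0.987 by edgeR. Single rats moved the 3-week value in opposite directions. By DESeq2 the log2 fold change was 1.37 without IDPN-3wk replicate 1 (adjusted p = 0.027, the only such fit that called it) and 0.08 without IDPN-3wk replicate 2.

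Gap43 and Stmn2, genes of growing and regenerating axons, had the largest differences in fold among the 9 genes, with SEs above 1 on the log2 scale. GAP-43 is a membrane protein of the growth cone, and stathmin-2 regulates microtubules in axons. Gap43 measured 9.90, 13.1 and 14.4 CPM in controls, 0.436, 0 and 1.38 CPM in IDPN-3wk and 0, 1.11 and 0.177 CPM in IDPN-7wk. In counts, the controls held 367, 419 and 511, whereas the exposed rats held 16, 0 and 45 at 3 weeks and 0, 54 and 7 at 7 weeks. The groups were far from overlapping, with group means 20.6-fold lower than control at 3 weeks and 29.0-fold lower at 7 weeks. Even so, Gap43 was not a DEG in the main analysis. The log2 fold changes of -4.35 ± 1.39 (SE) at 3 weeks and -4.84 ± 1.42 (SE) at 7 weeks had adjusted p of 0.164 and 0.082 by edgeR, and 0.136 and 0.061 by DESeq2. Within an exposed group the rats ranged from 0 counts to 45 or more. At 7 weeks the call was made in 1 of 12 other settings, the fit of only the groups compared (adjusted p = 0.0219, within a range of 0.0219 to 0.255), and by DESeq2 without IDPN-7wk replicate 1 (0.00346) or replicate 2 (0.005). At 3 weeks no other setting called it (adjusted p from 0.106 to 0.45).

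Stmn2 was near the limit of detection. It had 13, 11 and 35 counts in the controls, 0, 0 and 4 counts in IDPN-3wk, and 0, 3 and 1 counts in IDPN-7wk. Every exposed rat was below every control, and the group totals were 59 counts in controls against 4 in each exposed group. Its log2 fold changes of -3.67 ± 1.64 (SE) and -4.12 ± 1.67 (SE) had adjusted p of 0.301 and 0.193 by edgeR. DESeq2 called it at 3 weeks only when IDPN-3wk replicate 3 was left out (adjusted p = 0.0346). Without the 3 libraries with fewer genes, among which the control with 35 counts falls, 1 IDPN-3wk rat is left. The 3-week log2 fold change was then -1.47 by edgeR.

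**Figure D3:**
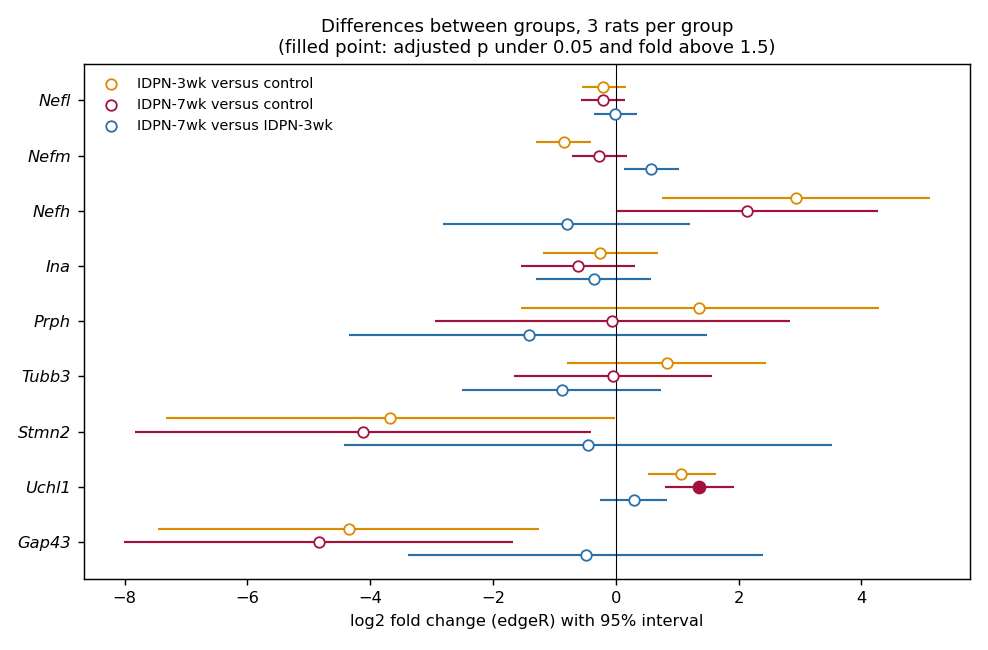
Log2 fold change of each gene by edgeR (x axis) with its 95% interval, for the 3 comparisons, with 3 rats per group. A filled point marks a DEG, which is only Uchl1 in IDPN-7wk versus control. The intervals of Gap43 exclude 0 in both comparisons with control although its adjusted p was over 0.05.

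Across the 9 libraries, some of these genes varied together, given here as a description over points that share their groups. Pearson's r of log2(CPM+1) was 0.89 between Stmn2 and Gap43, -0.89 between Uchl1 and Gap43 and 0.65 between Nefl and Nefm. The 5 tested genes whose pattern was most like that of Nefl were Rab3c (r = 0.954), Ptrh2 (0.929), Rgs3 (0.926), Nop10 (0.922) and Gosr2 (0.905), over n = 9 libraries. Rab3c, a small GTPase of secretory vesicles, averaged only 0.173 CPM, so its likeness rests on few reads. Within the libraries that had more detected genes, IDPN-7wk differed from control by 1.16 for Uchl1, -3.20 for Gap43 and -0.36 for Nefm on the log2(CPM+1) scale, with 3 rats against 2.

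The other genes of the axonal cytoskeleton mostly did not pass the test. Of 25 tested genes for microtubules, their binding proteins and the spectrin-ankyrin skeleton, 2 fell at 3 weeks and 1 fell at 7 weeks, and the list's median log2 fold change was -0.09 and then 0.04. Over all genes tested, 1.21% fell and 0.438% rose at 3 weeks, and 3.13% fell and 2% rose at 7 weeks, and the median log2 fold change was -0.000467 and 0.0097. Map2, a dendritic microtubule protein, fell at 3 weeks (log2 fold change -0.96 ± 0.158 SE, adjusted p = 0.0154 by edgeR). It measured 34.9, 34.3 and 28.6 CPM in controls and 16.1, 16.1 and 18.2 CPM in IDPN-3wk. In IDPN-7wk Map2 measured 26.0, 26.5 and 31.5 CPM, overlapping with the controls. Against IDPN-3wk its adjusted p at 7 weeks was 0.0847 by edgeR and 0.000294 by DESeq2. From highest to lowest, its group means were in the order control, IDPN-7wk, IDPN-3wk, as were those of Nefm. Other genes of this list, such as Ank3 and Tubb2a, had the same order, and how common it is over all genes was not tested. Ank3, which encodes the ankyrin of the axon initial segment and nodes, fell at 3 weeks from a mean of 101 to 48.3 CPM (adjusted p = 0.0284 by edgeR) and averaged 73.9 CPM at 7 weeks (adjusted p = 0.248). Stmn1, another stathmin, fell at 7 weeks from 217 to 143 CPM (log2 fold change -0.60, adjusted p = 0.0318).

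Of the motors that carry cargo along axons, kinesins, dyneins and dynactins, 0 of 15 passed the test at either time, by edgeR or by DESeq2. An unadjusted edgeR p under 0.05 was found for 1 and 3 of them, with 15.8% and 19.3% of all genes. The largest of these differences was that of Kif5a, a neuronal kinesin heavy chain, at 7 weeks (log2 fold change -1.62 ± 0.652 SE, unadjusted p = 0.0316, adjusted p = 0.205), named after its values were seen. Of 12 tested linkers, kinases and turnover factors of neurofilaments, none passed at 3 weeks by edgeR and 1 did by DESeq2. At an unadjusted edgeR p under 0.05 there were 3 at 3 weeks, with 15.8% of all genes. At 7 weeks Hspb1 rose and Mapk10 fell. Hspb1, a small heat shock protein, measured 126 to 158 CPM in controls and 279 to 471 CPM in IDPN-7wk (log2 fold change 1.33 ± 0.213 SE, adjusted p = 0.0055 by edgeR). Mapk10, the neuronal JNK kinase, fell by 1.81 on the log2 scale, with an adjusted p of 0.0497, just inside the threshold. Of 5 other intermediate filament genes of types III and IV (Vim, Des, Gfap, Synm and Nes) none was a DEG by edgeR. At an unadjusted edgeR p under 0.05 there were 0 at 3 weeks and 2 at 7 weeks, with 15.8% and 19.3% of all genes. DESeq2 called 1 of them, Des, at 7 weeks (adjusted p = 0.0211, against 0.115 by edgeR).

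Among 16 tested axon growth and membrane genes, 1 fell at 3 weeks, and 3 fell and 1 rose at 7 weeks. The median over this list was -0.22 and then -0.3 on the log2 scale. Cntn1 was a DEG at both times. Cntn1, an adhesion molecule of axons and of nodes, fell from 479 CPM in controls to 294 CPM at 3 weeks and to 222 CPM at 7 weeks (log2 fold changes -0.71 and -1.11, adjusted p of 0.0128 and 0.000457 by edgeR). At 7 weeks the adhesion molecule Ncam1 fell (log2 fold change -1.83, adjusted p = 0.00748). Sncg, gamma-synuclein, rose from 20.3 to 34.5 CPM (log2 fold change 0.77, adjusted p = 0.0359). Of 8 tested genes of the neuronal injury response, Tubb6 rose at both times and Atf3 at 7 weeks, and 0 were called lower. Over all genes tested, 0.438% rose at 3 weeks and 2% at 7 weeks. The median log2 fold change of this list was -0.09 and then 0.45, with 5 of 8 genes lower at 3 weeks and 3 at 7 weeks. Tubb6, a beta-tubulin, went from a mean of 21.9 CPM in controls to 47.1 and 46.9 CPM (adjusted p of 0.0123 and 0.00434 by edgeR). Atf3, a stress-induced transcription factor, measured 3.88 to 6.58 CPM in controls and 11.1 to 16.4 CPM in IDPN-7wk (log2 fold change 1.29, adjusted p = 0.029). Neither gene is limited to neurons.

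**Figure D4:**
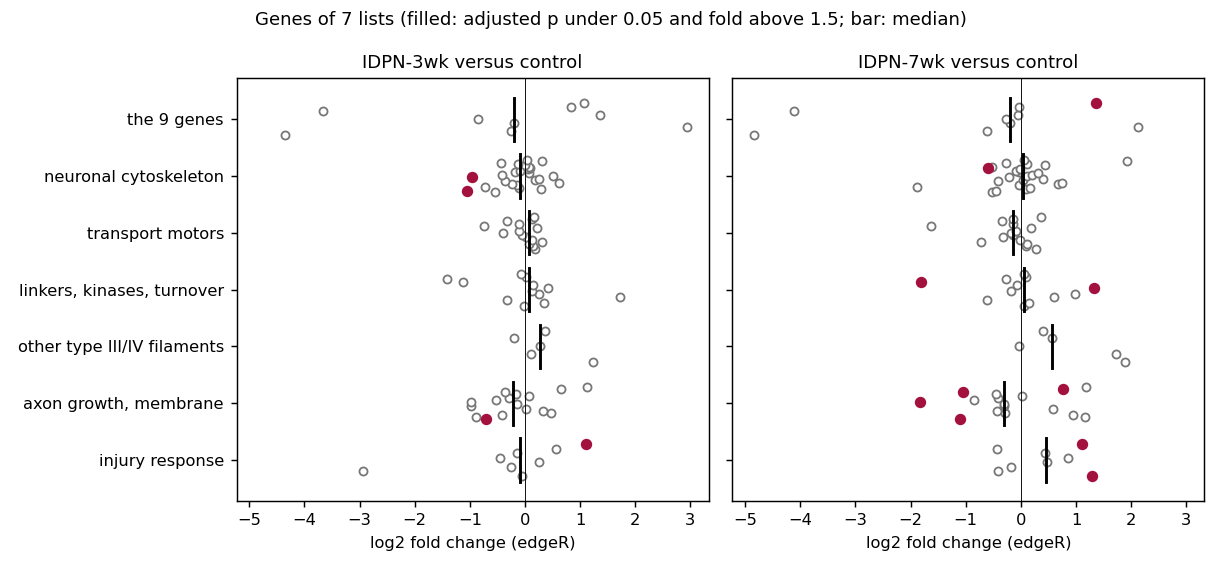
Log2 fold change by edgeR of the tested genes of 7 lists in IDPN-3wk (left) and IDPN-7wk (right) against control. Each point is a gene, filled points are DEGs and vertical bars are medians. DEGs are few in each list, with 1 filled point among the 9 genes at 7 weeks and none at 3 weeks, and no transport motor is filled at either time.

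Markers of other cells moved between the groups as well, and their part in the differences above was not tested. Of 12 tested neuron body markers, 3 fell at 3 weeks (Snap25, Isl1 and Ntrk2) and 4 at 7 weeks (Snap25, Ntrk2, Syt1 and Ntrk3), and 10 of 12 were lower at each time. Of all genes tested, 1.21% fell at 3 weeks and 3.13% at 7 weeks, and 50% and 48.9% were lower. The summed level of the list was 453 to 473 CPM in controls, 243 to 311 CPM in IDPN-3wk and 221 to 256 CPM in IDPN-7wk. Ntrk2, Isl1 and Ntrk3 made up most of this sum in every group, so it mainly follows those genes. Snap25, a protein of synaptic vesicle fusion, measured 32.8, 38.6 and 44.3 CPM in controls, 9.78, 18.6 and 10.4 CPM in IDPN-3wk and 10.1, 11.3 and 10.5 CPM in IDPN-7wk. Many of these markers are also made by HCs, supporting cells or Schwann cells. The untested markers named above were at 0 or did not exceed 1.35 CPM. Others of the list were present at low levels, with control means of 7.25 CPM for Rbfox3, 4.86 CPM for Syn1 and 0.819 CPM for Elavl4. Of the most abundant, Ntrk2, a neurotrophin receptor, averaged 166 CPM in controls and 98.4 and 63.4 CPM in exposed rats (adjusted p of 0.0423 and 0.000878 by edgeR). Isl1, a transcription factor of sensory neurons and of the sensory epithelium, averaged 120 CPM, then 72.8 CPM (adjusted p = 0.0231) and 82.9 CPM. Ntrk3 averaged 70.2 CPM, then 41.6 CPM and 42.7 CPM (adjusted p = 0.0347 at 7 weeks), and Syt1 fell at 7 weeks by 2.13 on the log2 scale (adjusted p = 0.00186).

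Of 13 HC markers, 5 fell at 3 weeks and 8 at 7 weeks, with 1.21% and 3.13% of all genes. Their sum was 7130 to 7850 CPM in controls, 3980 to 4820 CPM in IDPN-3wk and 2930 to 3020 CPM in IDPN-7wk. The most abundant HC markers were Spp1, with means of 5180, 2990 and 1500 CPM, Otof, with 703, 353 and 351 CPM, and Myo6, with 533, 364 and 382 CPM, in control, IDPN-3wk and IDPN-7wk. Spp1 was the largest part of the HC sum, whose group means were 7450, 4530 and 2980 CPM. The lower sum at 7 weeks than at 3 weeks came mostly from Spp1. Spp1 and Otof were DEGs at both times, as were Tmc1, Calb2 and Lhx3, Espn was a DEG at 7 weeks, and Myo6 changed by less than 1.5-fold at either time. Supporting cell markers summed to 13000 to 13500 CPM, 7770 to 9740 CPM and 5200 to 7540 CPM, with 1 (Otogl) and 4 (Otogl, Gjb6, Tectb and Otog) of 10 falling. Otog made up most of this sum, with means of 8470, 4670 and 3530 CPM in control, IDPN-3wk and IDPN-7wk. For the 14 Schwann cell and myelin markers the sums were 14100 to 16500 CPM, 11900 to 15000 CPM and 6320 to 10500 CPM. None of them was a DEG at 3 weeks by edgeR or DESeq2, and none had an unadjusted edgeR p under 0.05. At 7 weeks Ncmap, Mbp and Pmp22 fell by edgeR and 8 of 14 by DESeq2, which called 8.73% of all genes. An unadjusted edgeR p under 0.05 was found for 12 of 14, with 19.3% of all genes. All 14 were lower, with 48.9% of all genes, and the median log2 fold change was -0.85. S100b and Mbp, both abundant, averaged 3480 and 1990 CPM in controls and 2490 and 897 CPM in IDPN-7wk, and of this pair only Mbp was a DEG (adjusted p = 0.035 by edgeR). Macrophage markers summed to 76.5 to 119 CPM in controls, 52.4 to 143 CPM in IDPN-3wk and 221 to 285 CPM in IDPN-7wk, with 1 of 10, C1qb, rising at 7 weeks by edgeR and 5 by DESeq2. All 10 were higher at 7 weeks, without overlap with the controls, and their median log2 fold change was 1.45. Of all genes tested, 34.3% did not overlap in this comparison. Of 6 endothelial markers Cdh5 rose and Flt1 fell at 7 weeks, and of 6 fibroblast markers Lum fell. Red blood cell markers summed to 225 to 274 CPM in controls, 318 to 402 CPM in IDPN-3wk and 202 to 297 CPM in IDPN-7wk. None was a DEG by edgeR, and DESeq2 called 1 at 3 weeks. At an unadjusted edgeR p under 0.05 there were 3 at 3 weeks, with 15.8% of all genes. Over n = 9 libraries, Gap43 had r = 0.89 with the neuron body sum, 0.87 with the supporting cell sum, 0.85 with the HC sum and 0.62 with the Schwann cell sum. For Uchl1 the same values were -0.88, -0.97, -0.88 and -0.76. Nefm had r = -0.79 with the red blood cell sum and 0.33 with the HC sum.

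**Figure D5:**
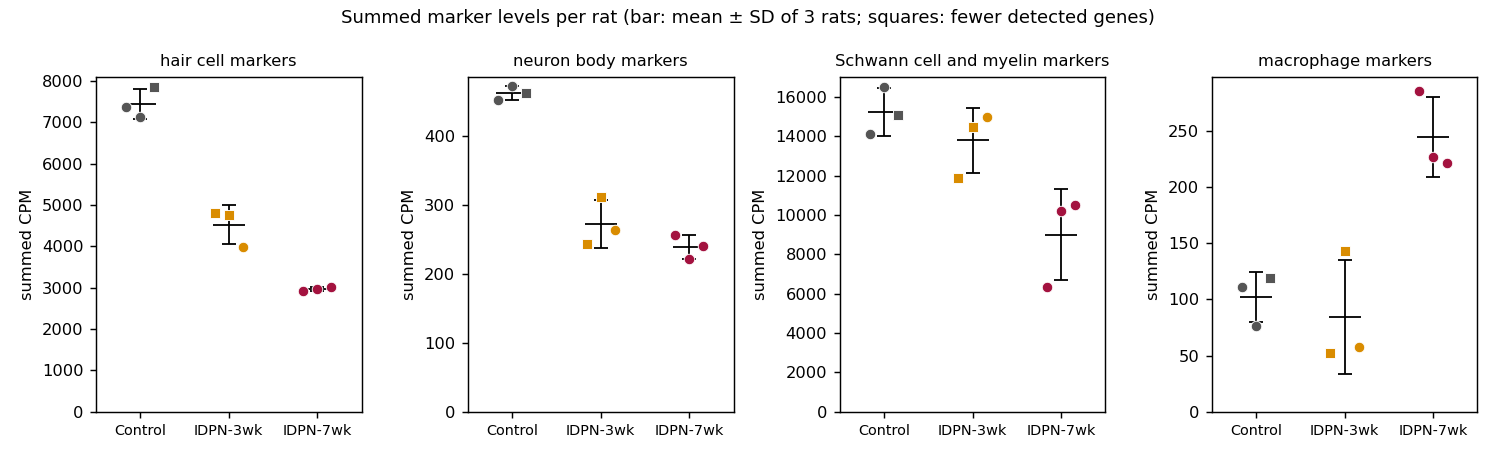
Summed CPM of HC, neuron body, Schwann cell and macrophage markers in each rat, on linear axes that start at 0. Points are rats, bars are the mean ± SD of 3 rats, and squares are libraries with fewer detected genes. HC sums are 7130 to 7850 CPM in controls and 2930 to 3020 CPM in IDPN-7wk, and Schwann cell sums at 3 weeks overlap with the controls. Spp1 is the largest part of the HC sums, and Ntrk2, Isl1 and Ntrk3 make up most of the neuron body sums.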

How the data were processed

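Vestibular epithelia of 9 rats were sequenced with a SMARTseq2 protocol (poly-A priming, PCR amplification, no molecular identifiers). The authors aligned reads with STAR 2.5.3a and quantified them with RSEM 1.3.0 (versions per the submitters' processing notes) against Rnor6.0. The deposited table holds expected counts per gene from that step, given as whole numbers without normalization. SMARTseq2 does not mark strand, so reads from overlapping antisense genes cannot be told apart.

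Groups came from the treatment labels, and replicate numbers were assigned here. R 4.3.3 was used with edgeR 4.0.16 and DESeq2 1.42.0. The filterByExpr function kept 15517 of 32883 genes, which were normalized by TMM and tested by edgeR's robust quasi-likelihood test in a single fit of 9 libraries with a mean per group (6 residual degrees of freedom). P-values were adjusted by Benjamini-Hochberg over all genes, and a call needed an adjusted p under 0.05 and a fold above 1.5. CPM are TMM-normalized. Ratios used a pseudocount of 0.5 counts. The pipeline was tested on simulated data.

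Members and lists were chosen with earlier results of these data known. Named are all 9 genes, up to 4 called genes per list and comparison, and the 5 genes most like Nefl. From the HC, neuron body and Schwann cell markers the 3 most abundant are also named. Some genes that meet these rules are not reported here. Separate rats gave each library, so p-values cover the spread between rats. No 2 replicates agreed within sampling noise. Other settings tried were DESeq2, RLE normalization, other count filters, only the groups compared, a fold above 2, a covariate for fewer detected genes, and left-out libraries.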

Additional observations from a re-analysis of the deposited data

Results flagged for a closer look

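Between IDPN-7wk and IDPN-3wk, 2 genes of the marker lists differed by a test of that difference itself. Spp1, listed as an HC marker, had a log2 fold change of -1 in IDPN-7wk against IDPN-3wk (adjusted p = 0.00326 by edgeR), with means of 1500 against 2990 CPM and 5180 CPM in controls. Gjb6, a gap junction gene of supporting cells, had a log2 fold change of -0.69 (adjusted p = 0.0426 by edgeR), with means of 883 against 1420 CPM. None of the 9 neurofilament and neuronal genes met that test by edgeR (0 DEGs, 1 of 9 at an unadjusted p under 0.05) or by DESeq2.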

How the results depend on the processing

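Uchl1 at 7 weeks was called in all 13 other settings laid down with the main test. The number of the 9 genes called at 3 weeks went from 0 to 3 by DESeq2. It went to 1, Uchl1, with at least 10 counts in every library, where only 5 of the 9 were tested. At 7 weeks it went from 1 to 2 with only the groups compared and, by DESeq2, without the libraries with fewer genes. Leaving out each library gave 0 at 3 weeks, 1 at 7 weeks and 0 between exposed groups by edgeR, and 1 to 4, 1 to 2 and 0 to 1 by DESeq2. Over all genes the 3-week count was 826 by DESeq2, 118 with only the groups compared and 159 at a fold above 2. At 7 weeks it was 1392, 1249 and 480, and 1563 without the libraries with fewer genes. Between exposed groups it was 585 by DESeq2, 123 with at least 10 counts, 46 with only those groups and 37 with the covariate. Leaving out each library gave 75 to 439, 432 to 600 and 39 to 445 genes by edgeR. The cause was not tested.

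Of 338 fold changes of the 9 genes under those settings, 22 changed sign, none of them called. Without the libraries with fewer genes, Prph was -0.10 at 3 weeks (-0.11 by DESeq2) and 0.73 at 7 weeks (0.90 with the covariate). Between exposed groups Nefh was then 1.47 (1.48 by DESeq2, 0.71 with the covariate), Ina 0.57 (0.11) and Prph 0.84 (0.45), and the log2 ratios to Nefl were 1.5 for Nefh, 0.75 for Ina and 0.81 for Prph. Leaving out 1 library at a time turned Ina at 3 weeks (-0.63 to 0.06, up to 0.07 by DESeq2), Prph at 7 weeks (-0.78 to 0.73, with 0.06, 0.17 and 0.23 among the values of both tools) and Tubb3 at 7 weeks (-0.28 to 0.25). Between exposed groups it turned Ina (-0.67 to 0.02, 0.01 by DESeq2), Nefl (-0.09 to 0.09, 0.08 and 0.06 by DESeq2), Stmn2 (-1.53 to 3.32, 2.37 and 0.1 by DESeq2) and Gap43 (-2.81 to 0.92, 0.96 and 0.09 by DESeq2). The difference in log2 ratio to Nefl turned for Nefm at 7 weeks (-0.17 to 0.03), Ina at 3 weeks (-0.57 to 0.35), Prph at 7 weeks (-0.63 to 2.9) and, between exposed groups, Nefh (-1.45 to 0.16) and Ina (-0.74 to 0.18).

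No paired analysis was possible because the labels give no replicate numbers. Between the exposed groups, the number in the title codes is shared by 1 rat of each, and no control shares it with an exposed rat. Within each exposed group the other rats share a number. The letters after the number recur in controls and exposed rats, and their meaning is not given. With 3 rats per group, genes of low or variable count such as Stmn2, Prph and Gap43 had SEs above 1 on the log2 scale.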

Other observations

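These genes were noticed after their values were seen. Gal, a neuropeptide gene of injured neurons, was at 0 counts in all controls and IDPN-3wk rats and at 0.244, 0.308 and 0.152 CPM in IDPN-7wk, too low to be tested. Tubb2b, a neuronal beta-tubulin, measured 11.2 to 16.5 CPM in controls and 92.2, 16.7 and 39.4 CPM in IDPN-7wk, with a log2 fold change of 1.92 ± 0.531 (SE) and an adjusted p of 0.0653 by edgeR and 0.00209 by DESeq2.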
